A study of Mus musculus with 12 samples.

Results

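The synaptic vesicle and SNARE genes were followed across brain and stomach of chitosan-treated and mock-treated mice. Members were all genes whose symbol in the probe annotation of the array begins as those of the synaptotagmins (Syt), synapsins (Syn), SNAP-25 family (Snap), syntaxins (Stx), syntaxin-binding proteins (Stxbp), v-SNAREs (Vamp), SV2 proteins (Sv2), synaptophysin (Syp), synaptogyrins (Syngr), complexins (Cplx) or Rab3 proteins. The rule found 62 of the 16675 genes with a symbol, on 79 of the 29922 probes. Each gene was represented by its probe of highest mean log2 intensity over the 12 arrays, and the 17 further probes of 16 members served as a check. The letters of the rule also took in Snap91, a clathrin adaptor of vesicle endocytosis and no SNARE.

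The mice were male PPRE transgenic mice on the FVB background, 6 to 8 weeks old, and all of them carried a luciferase gene driven by repeats of the peroxisome proliferator response element and the tk promoter. They received 0.2 g/kg chitosan, a glucosamine polymer, or saline (mock) under the skin, and the organs were taken on day 3. The groups were chitosan brain, mock brain, chitosan stomach and mock stomach, with 3 single-colour arrays each, every array from a separate mouse of its group. Whole organs were used, and no source used here says whether 1 mouse gave both organs.

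Synaptic vesicles release transmitter when the v-SNARE on the vesicle zippers together with syntaxin and SNAP-25 on the plasma membrane. Munc18 proteins, encoded by part of the Stxbp genes, hold and guide syntaxin, complexins clamp the partly assembled complex, and synaptotagmins that bind calcium trigger fusion. Synapsins tether vesicles into a reserve pool, Rab3 proteins carry vesicles to the active zone, and SV2, synaptophysin and the synaptogyrins are proteins of the vesicle membrane. Relatives of the same families serve other membranes, such as Vamp8 and Stxbp2 in granule secretion of epithelial and blood cells, Stx5a at the Golgi and Stx7 on late endosomes.

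Values are normalized fluorescence intensities, whose scale differs between probes, so levels are compared between arrays and not between genes. A group was called above background where its mean exceeded 2 times the mean of the lowest intensities of its arrays. All arrays had the same highest intensity, 28367, their medians lay between 47.0 and 47.8, and 9.52% to 10.6% of the probes on an array exceeded 2 times its lowest value. Pearson's r across all probes between arrays of a group lay between 0.796 and 0.951, with array 3 of chitosan stomach and array 3 of chitosan brain giving the lowest values. The brain arrays carried neuronal, astrocyte and oligodendrocyte markers and the stomach arrays carried gastric gland, smooth muscle and forestomach markers, while the gastric gland lists were at background in brain. Of the markers of neurons, Eno2 read 631, 799.8 and 248 in chitosan brain and 508, 491 and 891 in mock brain, against 39.2 to 53.2 in the stomach arrays.

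Of the 62 members, 22 were above background in at least 1 group, 19 of them in brain and 13 in stomach. Among all genes with a symbol, 3815 of 16675 were above background in at least 1 group, 2765 in brain and 2893 in stomach. In the brain alone were 9 members above background, in the stomach alone 3 (Rab3d, Syngr2 and Syt3), and in both organs 10. The other 40 members stayed below background in every group, with single intensities between 36.2 and 91.25. They included synaptophysin (Syp), an abundant protein of synaptic vesicles, whose probe read 44.0 to 59.4 in chitosan brain and 46.0 to 48.9 in mock brain. Low readings of this kind do not show that the transcript is low. A probe can stay at background where another probe of the same gene reads high, as for Snap25 and Syt4 below.

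**Figure D1:**
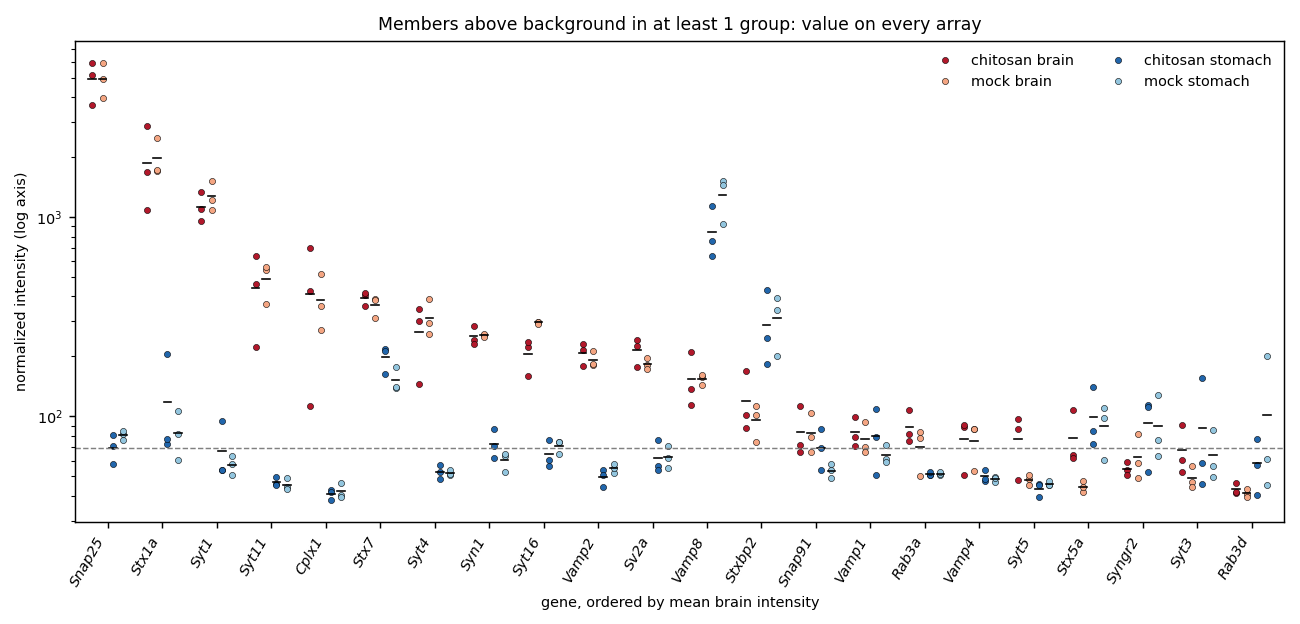
Normalized intensity (log axis) of the 22 members above background in at least 1 group, with a point for each array and a line for the mean of 3 arrays, for chitosan brain, mock brain, chitosan stomach and mock stomach. The dashed line is 2 times the mean lowest intensity of the arrays. Snap25 read 3647 to 5976 in brain and 57.7 to 84.6 in stomach, and Vamp8 read 115 to 210 in brain and 639 to 1522 in stomach.

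Promoter sequences are shown for Syn1 and Stx1a, which stood high in brain, and for Vamp8, which stood high in stomach. RefSeq promoters (GRCm38.p6) were matched by symbol for 48 of the 62 members, with 63 promoters in all. Each line gives the 250 bases before the start site on the strand of the gene, with capitals marking the motifs that a search found. Syn1 lies at chrX:20920919-20921168 on the minus strand, Stx1a at chr5:135023232-135023481 on the plus strand and Vamp8 at chr6:72390668-72390917 on the minus strand.
Syn1: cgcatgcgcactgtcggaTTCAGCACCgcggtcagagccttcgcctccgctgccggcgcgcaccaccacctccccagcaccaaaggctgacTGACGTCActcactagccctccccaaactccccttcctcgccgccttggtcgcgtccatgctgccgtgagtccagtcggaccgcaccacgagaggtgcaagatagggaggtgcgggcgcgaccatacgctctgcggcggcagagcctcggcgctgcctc
Stx1a: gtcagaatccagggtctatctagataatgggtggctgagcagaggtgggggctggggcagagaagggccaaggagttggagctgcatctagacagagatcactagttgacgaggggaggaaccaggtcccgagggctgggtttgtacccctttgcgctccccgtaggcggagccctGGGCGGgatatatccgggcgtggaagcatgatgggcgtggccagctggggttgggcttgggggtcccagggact
Vamp8: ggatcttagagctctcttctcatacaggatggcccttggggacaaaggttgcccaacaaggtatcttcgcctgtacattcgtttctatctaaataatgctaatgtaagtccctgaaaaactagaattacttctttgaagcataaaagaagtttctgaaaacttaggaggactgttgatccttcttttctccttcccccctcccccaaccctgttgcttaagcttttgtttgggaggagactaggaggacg
Both strands were searched for TTCAGCACC (the left part of the RE1 element, bound by the repressor REST outside neurons), TGACGTCA (the cAMP response element), GGGCGG (the GC box of Sp1) and TATAAA, none of which overlapped in these lines. Syn1 held TTCAGCACC 232 bases and TGACGTCA 159 bases before the start site, and no other member promoter held either. Of all 32851 promoters, 0.301% held TTCAGCACC and 1.55% held TGACGTCA. Stx1a held GGGCGG 74 bases before the start site, which 58.7% of the member promoters and 32.7% of all promoters also held. Vamp8 held none of these letters in this window. TATAAA stood in 7.94% of the member promoters and in 12.4% of all promoters. A match of letters is a description of the sequence, and no binding was measured here.

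The first comparison asked where the members stood in brain against stomach. In chitosan mice 9 of 62 members (14.5%) were higher in brain at an adjusted p under 0.05, against 1.44% of all probes, and 0 were lower in brain, against 0.939% of all probes. In mock mice, on other arrays, 11 members (17.7%) were higher in brain, against 2.83% of all probes, and 3 members (4.84%) were lower, against 3.54% of all probes. The test was limma's moderated test across all 29922 probes with Benjamini-Hochberg adjustment. At an unadjusted p under 0.05, 3 members (4.84%) were lower in brain in chitosan mice, against 4.83% of all probes. Over all genes by their brightest probe, the measure that matches the choice of 1 probe per member, the shares at an adjusted p under 0.05 were 2.09% higher and 1.43% lower in chitosan mice and 4.06% higher and 5.05% lower in mock mice. The median difference of the members was 0.04 on the log2 scale in chitosan mice and 0.06 in mock mice, against -0.01 and 0.02 over all probes. The count in chitosan mice moved with single arrays, to 15 without array 3 of chitosan brain, 2 and 4 without its arrays 1 and 2, and 1 and 0 without arrays 1 and 2 of chitosan stomach, while the 14 calls of mock mice became 11 to 13. These counts show how far the calls depend on single arrays, and are not set beside the share of all probes in the same fits. In whole organs, fewer cells of a type and less RNA per cell cannot be told apart.

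Among the plasma membrane SNAREs, Snap25 and Stx1a stood far higher in brain. Snap25, the SNAP-25 protein itself, read 5174, 5976 and 3647 in chitosan brain and 3951, 4953 and 5976 in mock brain. In the stomach it read 71.0, 80.3 and 57.7 with chitosan and 75.8, 81.2 and 84.6 with mock. The brain arrays lay far above every stomach array, with a brain minus stomach difference of 6.13 ± 0.46 (log2, SE) in chitosan mice and 5.93 ± 0.27 in mock mice (adjusted p = 0.0056 and 0.00018). The second Snap25 probe stayed at background in both organs, 39.6 to 45 in brain and 39.5 to 80.2 in stomach, so the difference rests on 1 probe. Snap23, the broadly expressed member of the family, was at background everywhere, 46.4 to 50.6.

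Stx1a, the syntaxin of neuronal exocytosis, read 1691, 1084 and 2864 in chitosan brain and 1706, 2487 and 1728 in mock brain. In the stomach it read 73.1, 76.9 and 205 with chitosan and 81.5, 60.4 and 106 with mock. Brain exceeded stomach by 4.05 ± 0.67 in chitosan mice (adjusted p = 0.027) and by 4.59 ± 0.35 in mock mice (adjusted p = 0.00033), and no brain array overlapped a stomach array. Stx7, the late endosomal syntaxin, was well expressed in both organs. It read 406, 419 and 359 in chitosan brain and 312, 386 and 384 in mock brain, against 164, 217 and 212 in chitosan stomach and 139.6, 141 and 177 in mock stomach. Its brain excess did not pass the test in chitosan mice (1.01 ± 0.51, adjusted p = 0.56) and passed in mock mice (1.24 ± 0.28, adjusted p = 0.043). With the replicate number as a block, the call in mock mice was lost (adjusted p = 0.20). Of the other 12 syntaxins, 11 were below background in every group.

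The remaining expressed syntaxin, Stx5a of the Golgi, went the other way in mock mice. In chitosan mice the arrays of the organs overlapped, with 64.3, 61.6 and 108 in brain and 73.1, 84.6 and 140.1 in stomach (-0.34 ± 0.33, adjusted p = 0.76). In mock mice it read 47.4, 41.8 and 44.0 in brain and 97.8, 60.1 and 109.7 in stomach (-0.96 ± 0.21, adjusted p = 0.039). As mock brain was below background, the stomach excess there is at least 1.25-fold. The call was lost in 8 of 15 alternatives, namely 5 fits without 1 array, the methods' t-test, the fit without a trend and the model of 12 arrays, with adjusted p between 0.066 and 0.23.

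The v-SNAREs split by member. Vamp2, the main v-SNARE of synaptic vesicles, read 217, 229.7 and 179 in chitosan brain and 180.5, 183 and 214 in mock brain, and 44.0 to 57.5 in the stomach arrays. The brain excess was at least 2.99-fold in chitosan mice (adjusted p = 0.0078) and at least 2.78-fold in mock mice (adjusted p = 0.00053), bounded because the stomach was below background. Vamp8, the endosomal and granule v-SNARE, stood high in stomach. It read 137, 115 and 210.4 in chitosan brain and 158, 162 and 144 in mock brain, against 639, 758 and 1139 in chitosan stomach and 1522, 926 and 1445 in mock stomach. The organs did not overlap, with a brain minus stomach difference of -2.46 ± 0.57 in chitosan mice (adjusted p = 0.10, and 0.032 with the replicate number as a block) and -3.04 ± 0.31 in mock mice (adjusted p = 0.0012). Vamp1, Vamp3 and Vamp4 passed in neither.

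Stxbp2 followed the pattern of Vamp8 at lower contrast. It read 102, 87.9 and 169.9 in chitosan brain and 74.2, 113 and 102 in mock brain, against 183, 248 and 434 in chitosan stomach and 393, 200.4 and 341 in mock stomach. The brain minus stomach difference was -1.23 ± 0.53 in chitosan mice (adjusted p = 0.46) and -1.66 ± 0.34 in mock mice (adjusted p = 0.028). The call in mock mice was lost under the methods' t-test and in 5 fits without 1 array, with adjusted p between 0.059 and 0.13. It was also lost with the replicate number as a block (adjusted p = 0.13). The other 5 syntaxin-binding genes, Stxbp3a, Stxbp4, Stxbp5, Stxbp5l and Stxbp6, were below background in all groups.

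Complexins and synaptotagmins added the calcium-triggered step. Cplx1, a complexin of central synapses, read 428, 699.8 and 113 in chitosan brain and 356, 273 and 521 in mock brain, against 38.1 to 46.3 in the stomach arrays. In chitosan mice the brain level was at least 4.67-fold that of the stomach, which lay below background, and missed the threshold (adjusted p = 0.073), with array 3 at 113 far below the other 2. With the replicate number as a block, adjusted p was 0.038. In mock mice the brain excess was at least 5.37-fold (adjusted p = 0.00052). Cplx2, Cplx3 and Cplx4 were below background in all groups.

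Syt1, the calcium sensor of fast release, read 1099, 953 and 1332 in chitosan brain and 1092, 1522 and 1220.2 in mock brain. In the stomach it read 53.5, 53.7 and 94.8 with chitosan and 57.7, 50.6 and 62.9 with mock. Brain exceeded stomach at least 14.6-fold in chitosan mice (adjusted p = 0.011) and at least 18.4-fold in mock mice (adjusted p = 0.00023). The second Syt1 probe gave the same split, with 758, 545 and 710.5 in chitosan brain and 854, 1161 and 1188 in mock brain, against 41.8 to 52.2 in stomach.

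Syt11, a synaptotagmin that does not bind calcium, read 462, 641 and 222 in chitosan brain and 367, 543 and 565 in mock brain, against 43.0 to 49.8 in stomach. Syt4, found on dense core vesicles, read 300.2, 348 and 145 in chitosan brain and 293, 259 and 386 in mock brain, against 48.6 to 57.0 in stomach. Syt16, an atypical family member, read 223, 237 and 159.6 in chitosan brain and 299, 298 and 292 in mock brain, against 56.7 to 76.1 in stomach. All 3 were higher in brain on every array. Against a stomach below background, the brain excess in chitosan mice was at least 5.82-fold for Syt11, at least 3.57-fold for Syt4 and at least 2.86-fold for Syt16. In mock mice it was at least 7.01-fold for Syt11 and at least 4.48-fold for Syt4, while Syt16, above background in mock stomach, differed by 2.06 ± 0.20 (log2). The adjusted p-values lay between 0.018 and 0.037 in chitosan mice and between 0.00031 and 0.00095 in mock mice. The second Syt4 probe stayed at background, 46.6 to 56.5 in brain and 46.0 to 63.3 in stomach. Of the 17 synaptotagmins, 4 were called in brain and 11 were below background in all groups.

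Among the vesicle tethers and membrane proteins, Syn1, the synapsin of the reserve pool, read 284, 243 and 229.8 in chitosan brain and 256, 259 and 252 in mock brain. In stomach it read 62.1, 70.9 and 86.1 with chitosan and 63.3, 52.4 and 65.1 with mock. The difference was 1.79 ± 0.34 (log2) in chitosan mice (adjusted p = 0.043) and at least 3.71-fold in mock mice (adjusted p = 0.00062), whose stomach lay below background, and its second probe also split the organs, 101 to 224 in brain against 45.1 to 49.8 in stomach. Sv2a, a transporter-like protein of the vesicle membrane, read 243, 226 and 177 in chitosan brain and 180.5, 197 and 173 in mock brain, against 53.7 to 76.1 in stomach. Brain exceeded stomach at least 3.0-fold in chitosan mice and at least 2.64-fold in mock mice (adjusted p = 0.027 and 0.0016). The second Sv2a probe was also higher in brain in mock mice (adjusted p = 0.00070). In chitosan mice its organs overlapped, with 137, 189 and 39.7 in brain and 41.8 to 42.7 in stomach (adjusted p = 0.44).

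Rab3a, the synaptic Rab3, was less separated, with 75.7, 107 and 81.7 in chitosan brain and 77.8, 50.4 and 83.1 in mock brain, against 50.6 to 52.8 in stomach. Its stomach levels were below background, and it did not pass in chitosan mice (at least 1.26-fold, adjusted p = 0.053) or in mock mice (adjusted p = 0.28). Snap91 read 71.7, 66.5 and 113 in chitosan brain and 66.0, 104 and 79.0 in mock brain, against 53.5, 69.0 and 86.1 in chitosan stomach and 53.7, 48.9 and 57.5 in mock stomach, and passed in neither.

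**Figure D2:**
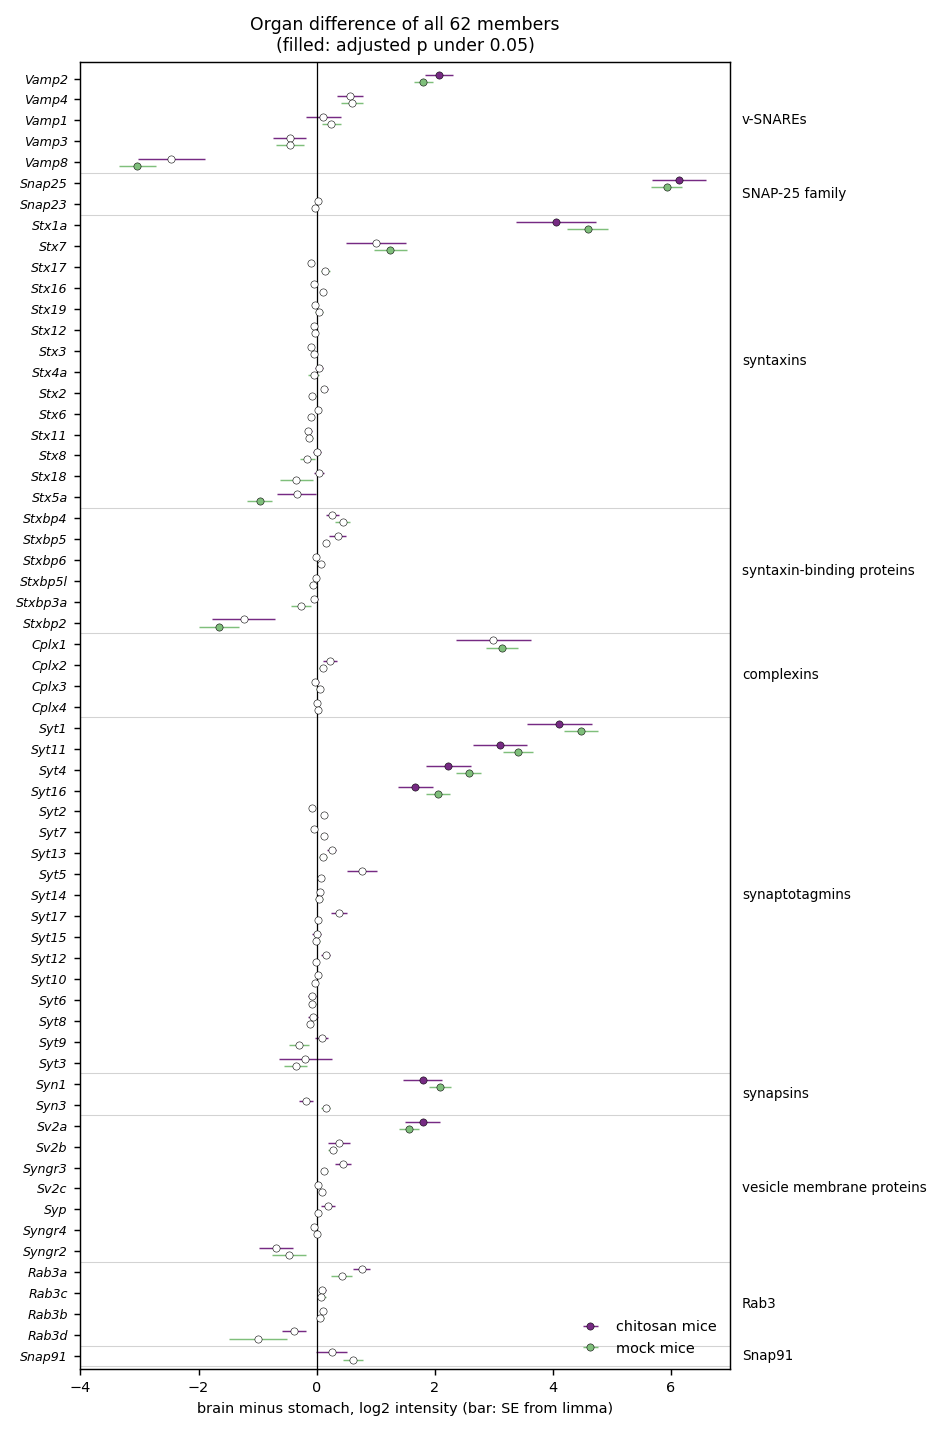
Brain minus stomach difference in log2 intensity for all 62 members by role, in chitosan mice (upper point) and mock mice (lower point), with SE from limma over 3 arrays per organ. Filled points passed an adjusted p of 0.05. The called members of chitosan mice, 9 in all, lie right of zero, while in mock mice Vamp8, Stxbp2 and Stx5a lie left of zero and 11 members lie right of it. Points are fitted differences, which are no measured size where an organ was below background.

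Genes that act around the members were counted from lists chosen with earlier results of these data known, beside the shares of all genes given above (2.09% higher in brain in chitosan mice and 4.06% in mock mice). For the disassembly of spent SNARE complexes, 2 of 4 genes were higher in brain in chitosan mice and 3 of 4 in mock mice, among them Nsf, the disassembling ATPase, at least 3.08-fold and at least 3.88-fold higher. For vesicle endocytosis, 2 of 28 were higher in chitosan mice and 5 of 28 in mock mice, including Dnm1, the fission GTPase dynamin, at least 6.70-fold and at least 4.85-fold higher. For transmitter loading, 1 of 14 was higher in chitosan mice and 3 of 14 in mock mice, including Atp6v1g2, a neuronal subunit of the proton pump, at least 48.3-fold and at least 31.4-fold higher. Nsf, Dnm1 and Atp6v1g2 were below background in the stomach of both sets of mice. The called genes of transmitter loading were all proton pump subunits, and no vesicular transmitter transporter was called. Of the transporters, Slc17a6, Slc17a8, Slc32a1, Slc18a1 and Slc18a2 were below background in every group. Slc17a7 was above background in chitosan brain only. Of 28 active zone and priming genes, none passed in chitosan mice, where 3 were higher at an unadjusted p under 0.05 (6.11% of all probes were), and 5 passed in mock mice, including the scaffold Rims1 (1.43 ± 0.25). No gene of these lists was called lower in brain by limma in either set of mice, and at an unadjusted p under 0.05 1 was lower in chitosan mice and 1 in mock mice, where 8.87% of all probes were.

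The second comparison asked whether chitosan changed the members within an organ. In the brain no member was called by limma at an adjusted p under 0.05, as for all probes (0%), and the smallest adjusted p among members was 0.72. At an unadjusted p under 0.05 stood 7 members (11.3%), 3 higher and 4 lower, against 6.50% of all probes. No member differed by 2-fold, the criterion of the study's methods, against 0.368% of all probes. The paper lists Snap29, a synaptosomal-associated protein, among its 2-fold brain genes. No probe carried that symbol in the annotation used here, so Snap29 was not among the members. The median difference over the 62 members was 0.01 on the log2 scale, against -0.01 over all probes. The arrays did not overlap for 3 members higher with chitosan (4.84%, against 5.00% of all probes) and for 7 members lower with chitosan (11.3%, against 6.79% of all probes).

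The 17 members bright in brain (a mean over its 6 arrays above 2 times the lowest intensity) had a median difference of -0.02, with 7 higher and 10 lower. For Snap25 the chitosan minus mock difference in brain was -0.02 ± 0.20 (95% interval -0.49 to 0.46), for Syt1 -0.18 ± 0.25 (-0.77 to 0.41), for Stx1a -0.16 ± 0.35 (-0.97 to 0.65) and for Vamp2 0.11 ± 0.36 (-0.72 to 0.95). These intervals, each from 1 probe, do not reach 2-fold. The second Syt1 probe differed by -0.67 ± 0.32 (interval -1.43 to 0.091, adjusted p = 0.77 by limma), and its interval does reach 2-fold lower. On that probe every chitosan brain array lay below every mock brain array, as for 6.79% of all probes. For Cplx1, at -0.19 ± 0.73, the interval ran from -1.90 to 1.52 with 3 arrays per group, and so includes a 2-fold change either way.

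The largest brain difference among expressed members was in Stx5a, at 64.3, 61.6 and 108 with chitosan and 47.4, 41.8 and 44.0 with mock. Every chitosan array lay above every mock array, the level was at least 1.09-fold that of mock, which lay below background, and the adjusted p was 0.72. Syt5, a dense core vesicle synaptotagmin, read 86.8, 96.8 and 47.8 with chitosan and 48.6, 45 and 50.6 with mock (at least 1.07-fold, adjusted p = 0.76), with array 3 of chitosan brain inside the mock range. The same array was the low one in Syt17, an atypical synaptotagmin below background, at 68.4, 67.5 and 47.8 with chitosan and 47.4, 46.0 and 46.6 with mock (adjusted p = 0.76). Syt16 was lower on every chitosan array (-0.54 ± 0.40, adjusted p = 0.77) with the values given above. Rab3a (0.34 ± 0.23), Syt4 (-0.32 ± 0.50), Stxbp2 (0.28 ± 0.31), Syt11 (-0.26 ± 0.54) and Sv2a (0.22 ± 0.36) overlapped between the groups. The second probe of Sv2a read 137, 189 and 39.7 with chitosan and 156, 174 and 229 with mock, which is the opposite direction.

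**Figure D3:**
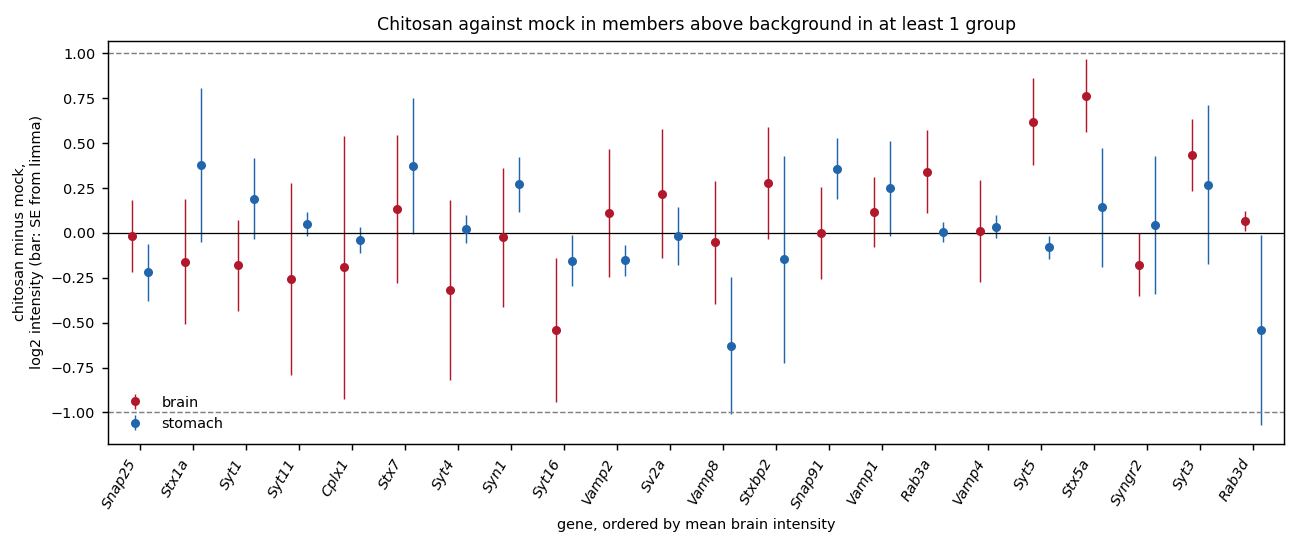
Chitosan minus mock difference in log2 intensity (SE from limma, 3 arrays per group) in brain and stomach for the 22 members above background in at least 1 group. Dashed lines mark a 2-fold difference, and every point lies between them, the lowest being -0.63 (Vamp8 in stomach). Points are fitted differences, which are no measured size where a group was below background, as for Stx5a in mock brain.

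Array 3 of chitosan brain often gave an extreme reading, among the members and among all bright genes. It gave the lowest of the 6 brain readings for 8 of the 17 bright members (47.1%, against 33.7% of all bright genes), namely Cplx1, Snap25, Syn1, Syt11, Syt16, Syt4, Vamp2 and Vamp4. It gave the highest reading for 5 others, Snap91, Stx1a, Stxbp2, Vamp1 and Vamp8 (29.4%, against 28.6%). Array 2 of chitosan brain gave the highest reading for 7 of the 17 (41.2%, against 22.2%). The summed intensity of 9 neuronal markers ran the same way, 1583, 2293 and 1119 on the 3 chitosan brain arrays and 1471, 1475 and 2147 on the mock brain arrays, with 5 of the 9 above background in both groups and none at 0. Array 3 was also the lowest chitosan brain array in the sums of 6 astrocyte markers (678, 686 and 472) and 5 oligodendrocyte markers (736, 1023 and 621.5), while Tubb3 within the neuronal list was highest there among the chitosan arrays, at 153. The part of this spread in the results was not tested. Without array 3, limma called Syt17, Stx5a and Syt5 higher with chitosan in brain, among 221 probes called over the whole array.

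**Figure D4:**
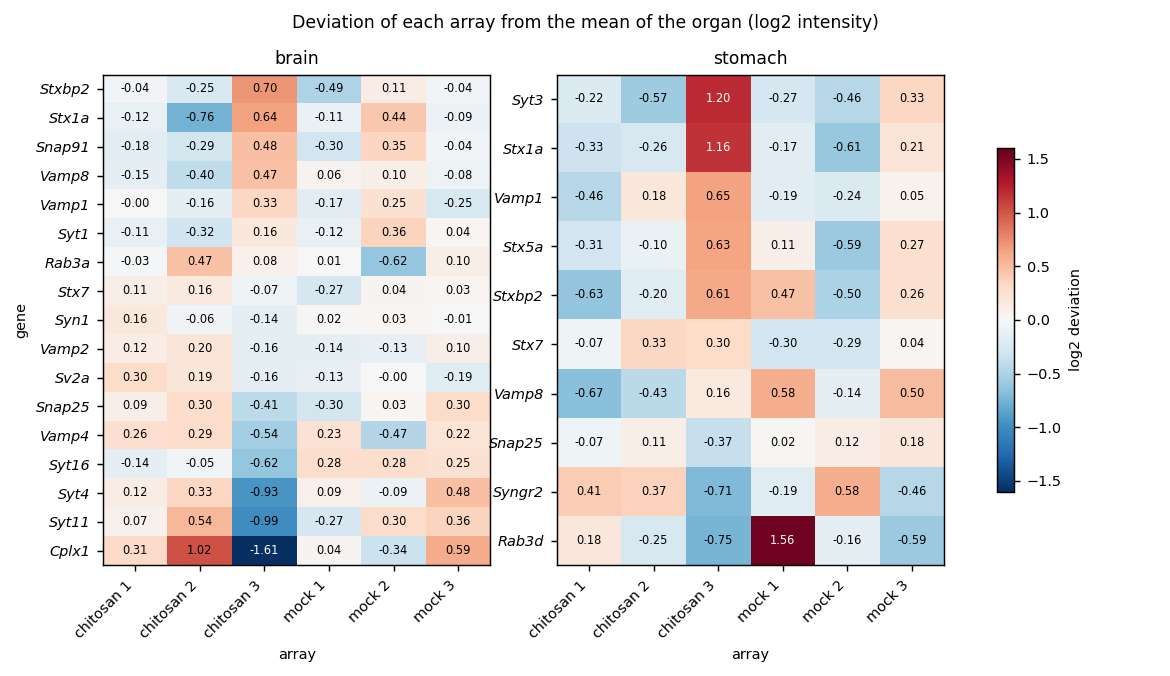
Log2 deviation of each array from the mean of the 6 arrays of its organ, for the 17 members bright in brain (left) and the 10 bright in stomach (right), with chitosan arrays left of mock arrays. Array 3 of chitosan brain is -1.61 for Cplx1 and 0.64 for Stx1a, and array 3 of chitosan stomach is 1.20 for Syt3 and -0.71 for Syngr2.

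In the stomach no member was called by limma, as for all probes (0%), and 1 member, Syt7 at background, had an unadjusted p under 0.05 (1.61%, against 5.25% of all probes). No member differed by 2-fold, against 0.521% of all probes. The arrays did not overlap for 3 members higher with chitosan (4.84%, against 6.86% of all probes) and 1 lower (1.61%, against 5.37%), all 4 below background. The median over the 62 members was 0.01, as over all probes. The 10 members bright in stomach had a median of 0.09, with 6 higher and 4 lower.

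The stomach member furthest from its mock level was Vamp8, at 639, 758 and 1139 with chitosan and 1522, 926 and 1445 with mock (-0.63 ± 0.38, interval -1.52 to 0.27, adjusted p = 0.85). Only array 3 of chitosan overlapped the mock range. Rab3d, a Rab3 of exocrine secretory granules, read 77.0, 57.0 and 40.4 with chitosan and 200.2, 60.8 and 45.1 with mock (at least 1.14-fold higher in mock, adjusted p = 0.86), and without mock array 1 the fitted difference turned to 0.10 (log2). Stx1a (0.38 ± 0.43), Syt3 (at least 1.01-fold) and Vamp1 (at least 1.09-fold) were each highest on array 3 of chitosan stomach, at 205, 157 and 109, and the values of Stx7 (0.37 ± 0.38), Snap91 and Syn1 overlapped between the groups.

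Array 3 of chitosan stomach gave the highest of 6 readings for 5 of the 10 bright members, Stx1a, Stx5a, Stxbp2, Syt3 and Vamp1 (50.0%, against 30.1% of all bright genes), and the lowest for Rab3d, Snap25 and Syngr2 (30.0%, against 39.2%). Syngr2, the synaptogyrin of non-neuronal cells, read 115, 111 and 52.8 with chitosan and 75.8, 129 and 62.9 with mock, and its second probe read 97.0, 106 and 45.1 with chitosan and 52.2, 88.6 and 50.6 with mock. Vamp3, the v-SNARE of recycling endosomes, read 90.8, 74.5 and 41.5 with chitosan and 46.0, 87.4 and 44.1 with mock. Both were thus high on arrays 1 and 2 of chitosan and array 2 of mock, the arrays on which Stxbp2 and Vamp8 were low.

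Marker sums of several stomach cell types did not overlap between chitosan and mock stomach arrays, although no probe was called there. The summed intensity of the 4 parietal cell markers was 529 to 835 with chitosan and 2719 to 2914 with mock, and all 4 differed by over 2-fold with arrays that did not overlap, with adjusted p between 0.14 and 0.85. For 3 chief cell markers the sum was 315 to 393 with chitosan and 1742 to 2766 with mock, with 1 marker above background. For 6 mucous cell markers it was 778 to 2697 with chitosan and 4674 to 12045 with mock, with 3 above background. For 7 enteroendocrine markers it was 551.5 to 678 with chitosan (1 above background) and 3176 to 3782 with mock (2 above background). The sum of 8 exocrine pancreas markers was 3100.5 to 6312 with chitosan and 17002 to 20420 with mock, with 1 of the 8, Clps, above background. The sum of 6 smooth muscle markers was 12960 to 16034 with chitosan and 7180 to 8899 with mock, and that of 5 forestomach markers was 18064 to 20877 with chitosan and 13321 to 14908 with mock. Of 7 enteric neuron and glia markers none was above background with chitosan and 1 with mock, with sums of 355 to 373 and 364 to 395, and no marker of these lists read 0. Their part in the stomach values of Vamp8, Rab3d and the other members was not tested.

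The third comparison set the chitosan difference in brain against that in stomach in 1 limma model of the 12 arrays. No member passed, against 0.251% of all probes, and 8 members (12.9%) had an unadjusted p under 0.05, against 9.36% of all probes. Without array 3 of chitosan brain, 3 members passed (Syt17, Stxbp5 and Syt5). That count is not set beside the share of all probes in the same fit, so it is no result about the members. The median of the members was 0.01, against -0.02 over all probes. The smallest adjusted p of a member was 0.38, for Syt2. For Syt5 the adjusted p was 0.47 and for Stx5a 0.64, both with a mock brain level below background.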

How the data were processed

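RNA from brain and stomach was labelled with Cy5, hybridized to Mouse Whole Genome OneArray chips and scanned. The authors took each spot's signal less its local background, left out control probes and spots whose signal to noise ratio was negative, and normalized the rest in limma, by a method that the sources used here do not name. The deposited values are normalized intensity values on a linear scale, without spot flags or depth, so that the 3 arrays per group limit the precision. Probe symbols came from the platform annotation, which names 21020 of 29922 probes.

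Here log2 intensities were fitted with lmFit and eBayes with an intensity trend (limma 3.58.1, R 4.3.3), on the 6 arrays of each comparison and on the 12 arrays for the difference between organs. Adjustment followed Benjamini-Hochberg across the whole array (threshold 0.05). An exact permutation test of 3 against 3 arrays cannot go below 0.1 and was not used. Where a dim group was below background, folds are lower bounds, taken against 2 times the lowest intensity of each array. No arrays were identical and no values were missing. The deviations of same-numbered chitosan brain and stomach arrays correlated at 0.12 to 0.60 over bright probes, and those of unlike number at -0.64 to 0.57. Brain array 2 went with stomach array 1 (0.57) more than with stomach array 2 (0.45). The correlations thus do not single out a pairing by number, and no source says what the numbers mean. The comparisons were fitted without the block, and blocked values are given where they change a call. The script was tested on simulated data. The members, gene lists and naming rule (12 brightest members in brain and 8 in stomach, 8 largest chitosan differences per organ, and the 8 largest brain and 6 largest stomach excesses) were chosen with earlier results of these data known. Alternatives tried were 1 model of 12 arrays, no trend, the methods' t-test, centering, quantile normalization, a floor, a filter, probe averaging, linear ratios, the replicate block and leaving out each array.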

Additional observations from a re-analysis of the deposited data

Results flagged for a closer look

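Syt2, a synaptotagmin of fast synapses, lay lower on all 3 chitosan brain arrays (46.6, 47.3 and 47.8) than on the mock brain arrays (50.1, 53.2 and 48.9), and higher on all 3 chitosan stomach arrays (50.8, 47.9 and 50.2) than on the mock stomach arrays (47.1, 46.3 and 46.3). The difference between the organs in the chitosan difference was -0.19 (log2, adjusted p = 0.38 by limma), so it did not pass the test, and every value lay below background.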

How the results depend on the processing

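Under the alternatives run, 0 members were called for chitosan against mock in either organ and 0 in the difference between organs, except when arrays were left out, where the count ran between 0 and 3 in brain, stayed at 0 in stomach and ran between 0 and 3 for the difference between organs (3 without array 3 of chitosan brain in both cases). For brain against stomach, leaving out 1 array gave 11 to 13 calls in mock mice and 0 to 15 in chitosan mice, where the methods' t-test gave 4 in place of 9. With the replicate block the calls were 11 in chitosan mice, 12 in mock mice and 0 in the other comparisons. Member counts under the alternatives are given without the share of all probes in the same fits. Same-numbered arrays of chitosan and mock did not deviate together in brain (correlations -0.37 to -0.0008), nor did those of mock brain and stomach (-0.30 to -0.04). In stomach, chitosan and mock arrays of number 2 and of number 3 did (0.50 and 0.58), but those of number 1 did not (-0.41). Chitosan array 1 went with mock array 2 at 0.69 in stomach, so the correlations show no pairing by number there. In chitosan mice the block added Cplx1 and Vamp8 to the 9 calls, though the correlations there do not single out a pairing by number. In mock mice it dropped Stxbp2 (adjusted p = 0.13) and Stx7 (adjusted p = 0.20). Probe averaging turned Sv2a in brain to -0.32. Leaving out 1 array turned the chitosan difference of Syt4 (-0.56 to 0.068), Stxbp2 (-0.0036 to 0.47) and Syt11 (-0.59 to 0.17) in brain, and of Rab3d (-0.97 to 0.10), Stx1a (-0.11 to 0.64), Syt3 (-0.26 to 0.62) and Vamp1 (-0.012 to 0.54) in stomach, none of them called. The causes were not tested. Among values of single named genes under these alternatives, 380 kept their direction and side of the threshold, 15 lost the call, 2 gained one and 8 changed sign. Without array 3 of chitosan brain Stx5a (0.51) and Syt5 (0.93) passed in brain, and the 15 lost calls were those of Stxbp2 and Stx5a in mock mice. Background intensity limits the 40 members that stayed below it.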
